A study of Homo sapiens with 4 samples.

Results

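The genes described here are 10 regulators of the G1 phase of the cell cycle, taken by symbol from a table of 16504 genes: the CDK inhibitors CDKN1A, CDKN1B, CDKN1C, CDKN2C and CDKN2D, the cyclins CCND2, CCND3 and CCNE1, and the kinases CDK4 and CDK6. All 10 were found, as 21 RefSeq transcripts that were summed per gene. RNA-seq was performed on cells labelled NB4, the name of a human acute promyelocytic leukemia line, in 2 control libraries with CEBPG present and 2 libraries with CEBPG knockdown. CEBPG encodes a leucine-zipper protein of the CCAAT enhancer binding protein (C/EBP) family, and in the study methods it was silenced by lentiviral short hairpin RNA (shRNA) with puromycin selection, the controls being shRNA control cells. The number 3 in the knockdown label was taken to mean the third hairpin of the study, which is an assumption. With 1 hairpin, an effect of the hairpin itself and of CEBPG loss cannot be told apart. The labels do not say whether replicates were separate cultures, so p-values measure only the spread between these libraries, which may be technical.

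Cells leave G1 when D-type cyclins bind CDK4 or CDK6 and cyclin E binds CDK2, and these complexes phosphorylate the retinoblastoma protein RB1 and release E2F transcription factors. The INK4 inhibitors (p18, encoded by CDKN2C, and p19, encoded by CDKN2D) bind CDK4 and CDK6 alone. The CIP/KIP inhibitors (p21, p27 and p57, encoded by CDKN1A, CDKN1B and CDKN1C) bind cyclin and kinase together and restrain CDK2 above all. In blood cells, D-type cyclins and CDK6 sustain progenitor division, and CDK inhibitors accompany cell cycle exit as cells mature.

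FPKM values (fragments mapped to a transcript, scaled to its length and to the mapped reads of the library) summed to between 346170 and 367105 per library, and read depth was unknown. CEBPG was at 17.1 and 18.1 FPKM with CEBPG present and at 6.91 and 7.96 FPKM after knockdown. The cell label was compared with marker genes. Of 20 erythroid genes, 16 exceeded 10 FPKM in all 4 libraries, with HBG2 between 2890 and 3766 FPKM. Another 3, namely HBB, SLC4A1 and AHSP, were under 1 FPKM in all 4. Of 11 promyelocyte genes listed, 5 were under 1 FPKM in all 4 libraries, among them the granule genes AZU1 and PRTN3, and only LYZ and SPI1 exceeded 10 FPKM in all 4. The marker genes thus went against the NB4 label in all 4 libraries. The erythroid genes summed to 8648 and 8172 FPKM with CEBPG present and to 9642 and 9076 FPKM after knockdown, and of 17 tested 3 were called higher and 4 lower. The promyelocyte genes summed to between 57.6 and 59.1 FPKM in the control libraries and to between 62.0 and 62.8 FPKM in the knockdown libraries, and of 5 tested 0 were called higher and 1 lower (limma, adjusted p under 0.05). The 1 called was LYZ, at 20.1 and 18.1 FPKM with CEBPG present and at 15.0 and 15.5 FPKM after knockdown (-0.30, limma adjusted p = 0.0289). Over all 10968 genes tested, 10.9% were called higher and 9.99% lower. With so few markers, these counts are a description only. The part of either cell program in the results below was not tested.

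To address which regulators of G1 differ when CEBPG is silenced, the groups were compared gene by gene. Knockdown libraries held more mRNA of all 3 CIP/KIP inhibitors and less of CCNE1 than control libraries. CDKN1A rose 2.42-fold, CDKN1C 2.03-fold and CDKN1B 1.22-fold as ratios of mean FPKM, and CCNE1 fell to 80.2% of the control level. The other 6 genes were not called. The 4 called genes among 10 compare with 20.9% of all 10968 genes tested (limma, adjusted p under 0.05). Without knockdown 1 or without knockdown 2, only CDKN1A and CDKN1C were called, against 7.39% and 7.90% of all genes. By direction, 3 were higher, against 10.9% of all genes, and 1 was lower, against 9.99%. With 10 genes these shares are a description only. The median absolute log2 change was 0.24 over the 10 genes and 0.15 over all genes tested. An unadjusted p under 0.05 together with a change beyond 1 in either direction on the log2(FPKM + 1) scale was reached by CDKN1A only, against 0.602% of all genes. With the fold taken as the ratio of mean FPKM (over 2 or under 0.5), CDKN1C passed as well, against 1.51% of all genes. In 8 of the 10 genes the groups did not overlap, against 64.8% of all genes tested, so separation of the groups by itself says little here. In bulk RNA, fewer cells with a transcript and less of it per cell cannot be told apart.

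**Figure D1:**
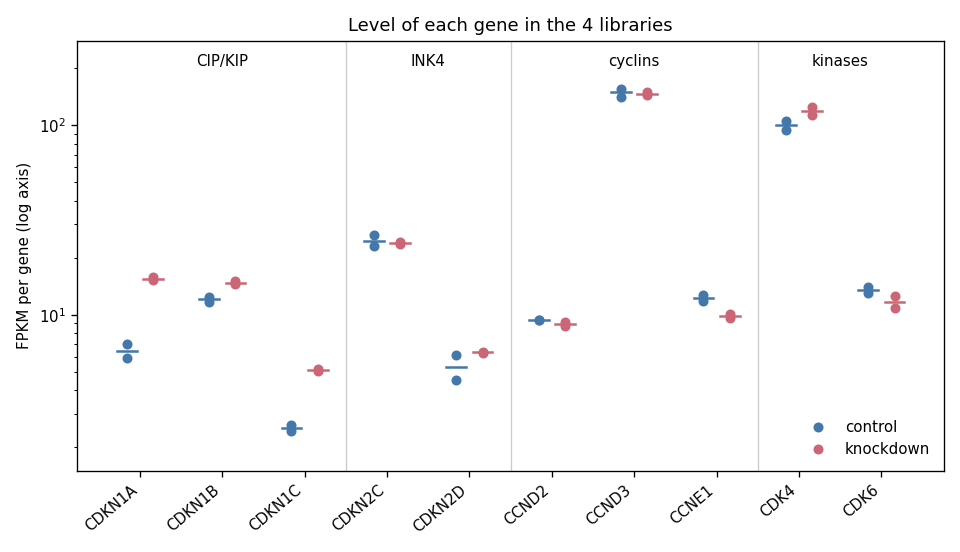
FPKM of the 10 genes (log axis) in the 2 control and 2 knockdown libraries, 1 point per library, with a line at each group mean. CDKN1A and CDKN1C show wide gaps between the groups, CDKN1B and CCNE1 narrow ones, and CCND3 and CDKN2C overlap.

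Promoter sequences from RefSeq (GRCh38.p14) were found for 8 of the 10 genes, CDKN1C and CCND2 being without an entry. They are shown for the called genes with an entry, since CEBPG belongs to a family that binds promoter and enhancer DNA. Each run covers 180 bases, from 190 to 11 bases before the transcription start, 5′ to 3′ on the strand of the gene, with the letters GGGCGG (a GC box) and CCAAT, or their reverse complements, in capitals. The run of CDKN1A is chr6:36678524-36678703 on the plus strand and overlaps an exon of the noncoding gene DINOL on the other strand. The run of CDKN1B is chr12:12717178-12717357 and that of CCNE1 is chr19:29811801-29811980, both on the plus strand and outside GENCODE exons.
CDKN1A: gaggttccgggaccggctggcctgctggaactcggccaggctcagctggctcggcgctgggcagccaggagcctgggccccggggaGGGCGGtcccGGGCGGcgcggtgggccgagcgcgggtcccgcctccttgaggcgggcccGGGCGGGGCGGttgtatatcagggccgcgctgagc
CDKN1B: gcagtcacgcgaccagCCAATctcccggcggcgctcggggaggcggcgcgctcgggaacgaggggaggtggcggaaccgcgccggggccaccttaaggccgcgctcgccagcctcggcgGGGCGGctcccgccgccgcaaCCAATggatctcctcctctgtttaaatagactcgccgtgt
CCNE1: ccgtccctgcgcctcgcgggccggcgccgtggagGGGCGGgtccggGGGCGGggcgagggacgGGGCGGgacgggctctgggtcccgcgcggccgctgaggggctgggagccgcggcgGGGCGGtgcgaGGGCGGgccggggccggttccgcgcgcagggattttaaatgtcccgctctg

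Motifs were searched on both strands in the 250 bases before each start. GGGCGG was found 4 times for CDKN1A, with 2 of the matches overlapping by 1 base, and 7 times for CCNE1, and at least once for 7 of the 8 genes, against 42.3% of 27305 promoters. CCAAT was found for CDKN1B (2 matches) and CDKN2D, against 33.0% of promoters. TTGCNNAA, a form of the site bound by C/EBP proteins, was found for CDKN2C only (9.13% of promoters), and TGATGNAA, a form of the composite site shared with ATF4, for none of the 8 (3.19% of promoters). The E2F core, searched as TTGGCGC, as well as TTCCCGC, likewise TTGCCGC and likewise TTCGCGC, was also found for none (11.02% of promoters). CACGTG, the E-box bound by MYC and its partners, was found 3 times for CDK4 and once for CDKN2C (6.49% of promoters). A match is a run of letters, not a bound site, and no match speaks only of this window.

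CDKN1A lies on chromosome 6 from position 36676460 to 36687337 on the plus strand (GRCh38, GENCODE 44). Its product p21 is an inhibitor that arrests cells in G1 after DNA damage. CDKN1A was at 6.97 and 5.89 FPKM with CEBPG present and at 15.3 and 15.8 FPKM after knockdown. Both knockdown libraries lay above both control libraries, by a gap far wider than the spread within either group. The mean rose from 6.43 ± 0.766 (SD, n = 2) to 15.5 ± 0.293 FPKM (SD, n = 2). On the log2(FPKM + 1) scale the change was 1.16 ± 0.086 (SE, limma, adjusted p = 0.000959). It ranked 21 from the top among log2 fold changes of 10968 genes, and 99.6% of genes changed by less in absolute terms. Leaving out each library in turn gave changes from 1.05 to 1.26, with adjusted p-values from 0.000895 to 0.00556 (limma). In each such fit, here and for the other genes, 1 group holds a single library that is assumed to vary like the other group.

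The gene total of CDKN1A was steadier than its division between transcripts. NM_000389 was at 5.55 and 5.66 FPKM with CEBPG present and at 13.03 and 9.07 FPKM after knockdown. NM_001220778 was at 1.42 and 0.231 FPKM with CEBPG present and at 2.31 and 6.68 FPKM after knockdown. The share of NM_000389 was thus 85.0% in knockdown 1 and 57.6% in knockdown 2, although the totals of these libraries were nearly equal. Tested as a transcript, NM_000389 changed by 0.85 and was not called (limma, adjusted p = 0.14).

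CDKN1C, on chromosome 11 from 2883213 to 2885775 on the minus strand, encodes p57, an imprinted gene product linked to quiescence of blood stem cells. It was at 2.61 and 2.43 FPKM with CEBPG present and at 5.19 and 5.06 FPKM after knockdown. The groups were well apart, at the lowest level of the 10 genes in both groups. The change on the log2(FPKM + 1) scale was 0.80 ± 0.084 (SE, limma, adjusted p = 0.00222), and 98.5% of tested genes changed by less. The added 1 FPKM shrinks the change of so low a gene, and with a pseudocount of 0.1 it was 0.995. The transcript NM_001122630 carried 89.5% of the signal, at 2.32 and 2.20 FPKM with CEBPG present and at 4.76 and 4.42 FPKM after knockdown. Tested as a transcript, NM_001122630 changed by 0.78 and was not called (limma, adjusted p = 0.0988). NM_001122631 was listed at 0 with CEBPG present and at 0.281 and 0.0942 FPKM after knockdown, levels too low to compare. The gene total stayed called when each library was left out, with changes from 0.76 to 0.83.

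CDKN1B encodes p27, whose abundance is set largely by protein degradation, and lies on chromosome 12 from 12685498 to 12722369 on the plus strand. It was listed as a single transcript, at 11.8 and 12.5 FPKM with CEBPG present and at 15.03 and 14.5 FPKM after knockdown. The groups did not overlap, but the gap was small. The change was 0.26 ± 0.067 (SE, limma, adjusted p = 0.0346), near the median absolute change of the 10 genes. The call was lost in 7 of 12 alternatives. Without control 1 the adjusted p was 0.0957, without knockdown 1 it was 0.169 and without knockdown 2 it was 0.102 (limma), while the change stayed between 0.22 and 0.30.

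Summed over the CIP/KIP genes, FPKM was 21.3 and 20.8 with CEBPG present and 35.6 and 35.3 after knockdown, a ratio of means of 1.68. The composition of the sum shifted as well. CDKN1B held 55.1% and 60.0% of it with CEBPG present and 42.3% and 41.02% after knockdown. CDKN1A held 32.7% and 28.3% with CEBPG present and 43.1% and 44.6% after knockdown. Its transcripts were thus below those of CDKN1B with CEBPG present and slightly above them after knockdown, most narrowly in knockdown 1. Against the summed FPKM of CDK2, CDK4 and CDK6, the CIP/KIP sum was 0.125 and 0.133 with CEBPG present and 0.187 and 0.197 after knockdown. All 5 inhibitors against CDK4 and CDK6 gave 0.452 and 0.448 with CEBPG present and 0.486 and 0.517 after knockdown, a ratio of means of 1.11, and the INK4 sum alone gave a ratio of means of 1.01.

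Neither INK4 inhibitor was called. CDKN2C, on chromosome 1 from 50960745 to 50974634 on the plus strand, was at 26.3 and 23.02 FPKM with CEBPG present and at 24.2 and 23.6 FPKM after knockdown. The groups overlapped, and the change was -0.04 ± 0.076 (SE, limma, adjusted p = 0.741). CDKN2C was the most abundant of the 5 inhibitors in both groups. CDKN2D, on chromosome 19 from 10566460 to 10569059 on the minus strand, was at 6.13 and 4.52 FPKM with CEBPG present and at 6.37 and 6.29 FPKM after knockdown. Control 1 lay close to the knockdown libraries and control 2 lay below. The change was 0.22 ± 0.12 (SE, limma, adjusted p = 0.232). It rested on the control libraries, being 0.41 without control 1 (limma, adjusted p = 0.0329) and 0.04 without control 2 (limma, adjusted p = 0.809).

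The transcripts of CDKN2D differed between libraries. NM_079421 was at 0.759 and 0.368 FPKM with CEBPG present and at 1.39 and 2.99 FPKM after knockdown, while NM_001800 was at 5.38 and 4.15 FPKM and at 4.98 and 3.30 FPKM. As in CDKN1A, knockdown 2 stood out, with 47.5% of the CDKN2D signal on the minor transcript against 21.9% in knockdown 1. Of the 21 transcripts of the 10 genes, 16 were tested and 0 had an adjusted p under 0.05 in limma, with 8 at an unadjusted p under 0.05. Over all 15795 transcripts tested, 0.158% were called and 20.3% had an unadjusted p under 0.05, so that a call on a transcript was rare in these libraries.

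**Figure D2:**
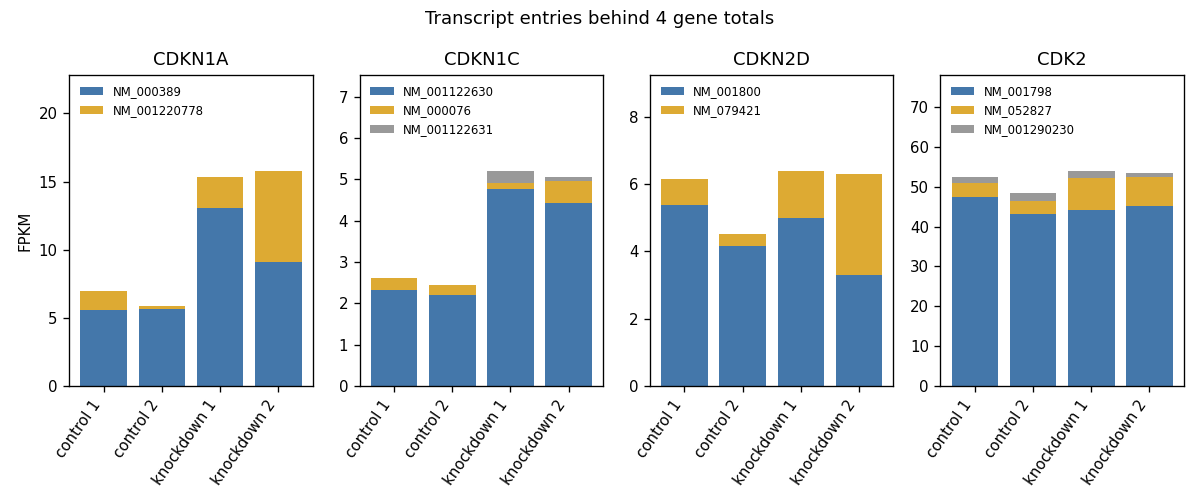
FPKM of each RefSeq transcript (stacked) in the 4 libraries for CDKN1A, CDKN1C, CDKN2D and CDK2. The totals of CDKN1A and CDKN1C are close within a group, the CDKN2D totals of the control libraries are not (6.13 and 4.52 FPKM), and the division of CDKN1A and CDKN2D between transcripts differs between knockdown 1 and knockdown 2.

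Neither D-type cyclin among the 10 was distinguished from no change. CCND3, on chromosome 6 from 41934934 to 42050357 on the minus strand, is a main D cyclin of blood cells and was the most abundant of the 10 genes, above 96.9% of tested genes in mean level. It was at 156.4 and 141.9 FPKM with CEBPG present and at 149.4 and 144.3 FPKM after knockdown. The knockdown values lay between the control values, and the change was -0.02 ± 0.067 (SE, limma, adjusted p = 0.849). Of its 6 transcripts, NM_001760 carried 96.4%. None of its 4 tested transcripts was called (limma, adjusted p from 0.147 to 0.874). Among the minor entries, NM_001136126 was at 1.23 and 1.24 FPKM with CEBPG present and at 1.03 FPKM and a listed 0 after knockdown, while NM_001136125 was at 0.538 and 1.05 FPKM with CEBPG present and at 2.28 and 2.63 FPKM after knockdown (0.96, limma adjusted p = 0.147). CCND2, on chromosome 12 from 4269771 to 4305353 on the plus strand, was at 9.36 and 9.38 FPKM with CEBPG present and at 8.70 and 9.16 FPKM after knockdown. Its change was -0.06 ± 0.068 (SE, limma, adjusted p = 0.537), although the groups did not overlap.

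CCND1, the third D cyclin and not among the 10, was at 31.7 and 32.7 FPKM with CEBPG present and at 25.3 and 25.8 FPKM after knockdown, a change of -0.32 (limma, adjusted p = 0.0122). It was not called without knockdown 1 or without knockdown 2. Its share of D cyclin FPKM was 16.1% and 17.8% with CEBPG present and 13.8% and 14.4% after knockdown. CCND3 held most of the sum in every library, from 77.1% to 81.4%.

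CDK4, on chromosome 12 from 57747727 to 57756013 on the minus strand, was at 105.8 and 93.9 FPKM with CEBPG present and at 125.1 and 113.5 FPKM after knockdown. The knockdown libraries were higher without overlap. The change was 0.26 ± 0.080 (SE) and missed the threshold (limma, adjusted p = 0.0644). CDK4 was called higher in 5 of 12 alternatives, among them median-ratio scaling of the columns (0.24, limma adjusted p = 0.0439), scaling to one sum (0.23, 0.0189) and the fit without control 1 (0.34, 0.0271). The change was 0.17 without control 2 (limma, adjusted p = 0.178) and 0.19 without knockdown 1 (limma, adjusted p = 0.328), and neither was called. CDK6, on chromosome 7 from 92604921 to 92836573 on the minus strand, had lower values in the knockdown, at 13.0 and 14.04 FPKM with CEBPG present and at 10.9 and 12.5 FPKM after knockdown. Its change was -0.19 ± 0.084 (SE, limma, adjusted p = 0.144), and over the 12 alternatives the adjusted p ranged from 0.0585 to 0.534 (limma). The change was -0.10 without knockdown 1 and -0.28 without knockdown 2. CDK4 made up 89.1% and 87.0% of the FPKM of both kinases with CEBPG present and 92.0% and 90.1% after knockdown.

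CCNE1, the cyclin E gene among the 10, lies on chromosome 19 from 29811991 to 29824312 on the plus strand. It was at 12.8 and 11.8 FPKM with CEBPG present and at 10.1 and 9.57 FPKM after knockdown. The groups did not overlap. The change was -0.29 ± 0.072 (SE, limma, adjusted p = 0.033). The call was lost in 5 of 12 alternatives, with adjusted p-values of 0.103 without control 1, 0.0948 without knockdown 1 and 0.147 without knockdown 2 (limma). Its paralog CCNE2, the other E-type cyclin, changed in the opposite direction, from 6.94 and 6.60 FPKM to 10.4 and 10.6 FPKM (0.56, limma adjusted p = 0.00369). The summed FPKM of both cyclin E genes was 19.7 and 18.4 with CEBPG present and 20.5 and 20.1 after knockdown. CCNE1 therefore held 64.8% and 64.1% of the sum with CEBPG present and 49.4% and 47.5% after knockdown. CDK2, the partner kinase of cyclin E, was at 52.5 and 48.6 FPKM with CEBPG present and at 53.9 and 53.5 FPKM after knockdown (0.09, limma adjusted p = 0.358). Its minor transcript NM_052827 went from 3.46 and 3.33 FPKM to 8.14 and 7.25 FPKM (0.98, limma adjusted p = 0.0699).

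**Figure D3:**
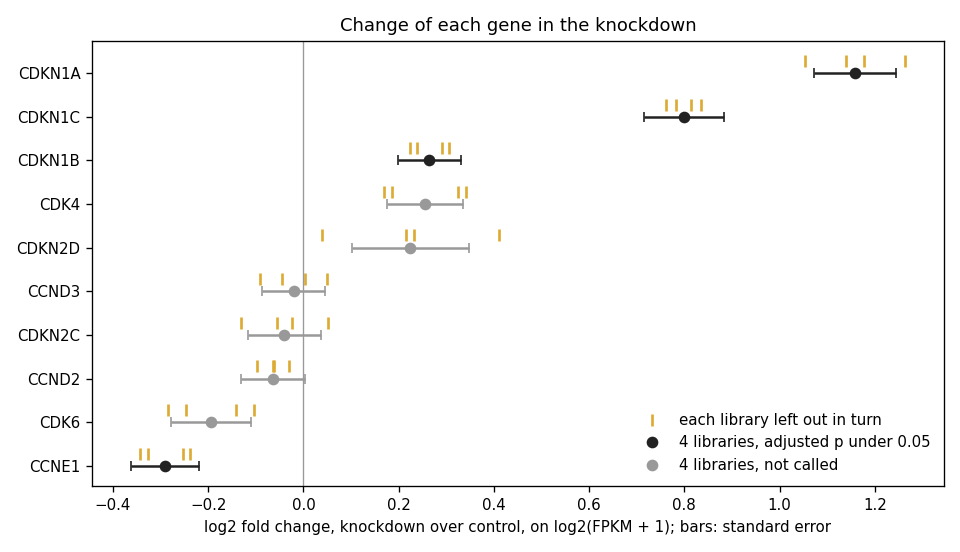
Log2 fold change of the 10 genes on the log2(FPKM + 1) scale, knockdown over control, with the standard error as bars and a tick for each of the 4 fits that leave out 1 library. CDKN1A (1.16) and CDKN1C (0.80) keep all ticks far from 0, while those of CCND3 and CDKN2C fall on both sides of it.

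FPKM is scaled by transcript length, so levels can be set side by side. In the control libraries the order was CCND3, CDK4, CDKN2C, CDK6, CCNE1, CDKN1B, CCND2, CDKN1A, CDKN2D and CDKN1C, from 149 to 2.52 FPKM. The ranges of CCNE1 and CDKN1B overlapped, as did those of CDKN1A and CDKN2D, so neither order was resolved. In the knockdown libraries CDKN1A followed CDKN2C, slightly above CDKN1B and above CDK6, and CDKN1C stayed lowest at 5.13 FPKM.

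Other genes of the G1/S transition were read from a fixed list of 47, of which 42 were tested. Of these, 3 were called higher and 9 lower (28.6%, against 20.9% of all genes), and the median log2 change was -0.01 against 0.02 over all genes tested. The higher genes were E2F7, an E2F repressor (0.72, limma adjusted p = 0.00285), CCNE2, and MDM2, a ubiquitin ligase (0.44, 0.0112). The lowest were MNAT1, a subunit of the CDK-activating kinase (-1.12, limma adjusted p = 0.000638), FBXO4, an F-box protein (-0.55, 0.00596), FOXM1, a driver of G2 and mitotic genes (-0.44, 0.0163), and CCND1. MNAT1 went from 12.95 and 13.8 FPKM to 5.53 and 5.71 FPKM. Without knockdown 1 the number called was 6 (7.39% of all genes in that fit), and without knockdown 2 it was 4 (7.90% of all genes), and CCNE2, E2F7, FBXO4 and MNAT1 were called in both.

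Among 20 E2F target genes, which act in DNA replication and nucleotide supply, 2 were called higher and 5 lower (35.0%, against 20.9% of all genes), with a median log2 change of -0.11. The higher genes were RRM2, the small subunit of ribonucleotide reductase, from 78.05 and 76.1 FPKM to 116.1 and 119.8 FPKM (0.61, limma adjusted p = 0.00156), and TYMS, thymidylate synthase (0.30, 0.0145). The lowest were the helicase subunit genes MCM6 (-0.43, limma adjusted p = 0.00417) and MCM7 (-0.27, 0.0479), the chromatin assembly gene CHAF1A (-0.27, 0.0196) and RRM1, the large subunit of ribonucleotide reductase (-0.26, 0.0233). The subunits of ribonucleotide reductase therefore moved in opposite directions. Most of these calls were lost in the fits without knockdown 1 or without knockdown 2, while MCM6 and RRM2 kept theirs. Each such fit has a single knockdown library, and fewer of all genes were called in it as well. With 20 genes, the share of 35.0% is a description only.

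**Figure D4:**
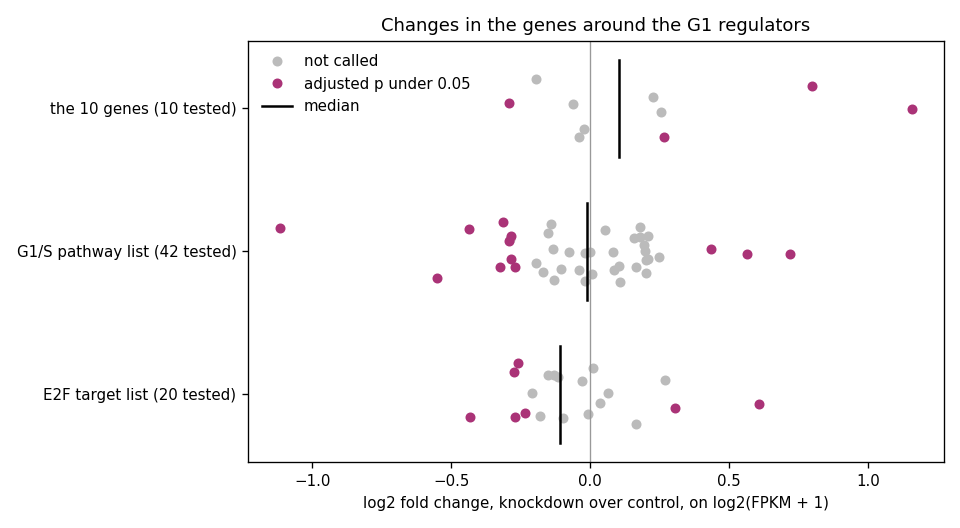
Log2 fold change (knockdown over control, log2(FPKM + 1) scale) of each tested gene among the 10 and in the G1/S pathway and E2F target lists, 1 point per gene with a line at the median. Called genes lie on both sides of 0 in each set, and the medians stay between -0.11 and 0.10.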

How the data were processed

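RNA-seq was performed on 2 control and 2 CEBPG knockdown libraries. Per the labels, RNA was extracted with Trizol and libraries were built with an Illumina TruSeq kit. The submitters' processing notes name HISAT2 2.0.5 and hg38, and the study methods state that filtered reads were mapped with HISAT. The quantifier and the annotation release are not given in the sources used here. The authors deposited FPKM values (fragments scaled to transcript length and to the mapped reads of a library) for 29265 RefSeq transcripts. Read counts were not analysed here, so depth was unknown and no interval for counting error was computed.

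Entries without values (183) or without a symbol (164, holding 0.250% of FPKM) were left out, and the other transcripts were summed to 16504 symbols. Tests covered 10968 genes whose mean over the 4 libraries reached 1 FPKM. Groups were compared on log2(FPKM + 1) with limma 3.58.1 (R 4.3.3). Variances were moderated along the mean level, tests were 2-sided, and p-values were adjusted by Benjamini-Hochberg over all tested genes. A gene was called at an adjusted p under 0.05. The script was tested on simulated data.

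The 10 genes and the gene lists were chosen with earlier results of these data known. Named list genes are, per list, the called genes with the largest absolute changes, at most 4 higher and 4 lower, together with CCND1, CCNE2, CDK2, CDKN2A and CDKN2B as close relatives of the 10. CDKN2A and CDKN2B were not analysed here, and 1 gene and 1 list of the original plan are not reported here. The settings varied were a pseudocount of 0.1, no filter or a filter at 5 FPKM, a replicate block, 2 other scalings of the columns, no mean trend, the main transcript of each gene, the threshold of the study, and each library left out. Locations are from GENCODE 44 (GRCh38) and promoter sequences from RefSeq (GRCh38.p14), both of the hg38 build.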

Additional observations from a re-analysis of the deposited data

How the results depend on the processing

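The direction of change was kept in 115 of 119 fits of single genes under the alternatives. The exceptions were CCND3 (-0.091 to 0.049 across fits without 1 library, positive without control 1 and without knockdown 2), CDKN2C (-0.13 to 0.052, positive without control 1) and the main transcript of CDKN2D (-0.18). CDKN1A and CDKN1C were called in each limma alternative, by adjusted p, that tested the gene total. Of the 10 genes, 4 were called, against 2 with no filter on low values (CDKN1A and CDKN1C), 0 in limma when each gene was represented by its main transcript (8 of their 16 tested transcripts had an unadjusted p under 0.05, against 20.3% of all transcripts), 1 at the threshold of the study on the log2(FPKM + 1) scale (CDKN1A) and 2 with its fold as a ratio of mean FPKM (CDKN1A and CDKN1C), a setting chosen after seeing the data. Across fits without 1 library the number was 2 to 4. For the G1/S list the 12 calls became 6 with no filter and 4 to 12 without 1 library. For the E2F targets the 7 calls became 3 with no filter, 4 without a mean trend, 11 with median-ratio scaling, 12 with columns scaled to one sum and 2 to 7 without 1 library. Over all genes, 20.9% were called, against 5.34% with no filter, 17.2% without a mean trend, 24.5% and 24.4% with the scalings, and 7.39% to 17.6% without 1 library. Fits without 1 library have fewer samples, and the filter changes how many genes are tested. For the other changes the cause was not tested. The replicate numbers pair nothing named in the labels, and libraries with the same number deviated from their group means with a correlation of 0.101 across genes. With the replicate block, 31.4% of all genes and 5 of the 10 genes were called, CDK4 being added (limma, adjusted p = 0.00209), and the lists gave 18 and 11 calls (G1/S and E2F). With 2 libraries a group and no read counts, small changes such as that of CDK6 were not resolved.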
